A study of Mus musculus with 4 samples.

Results

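The genes described here are 8 long noncoding RNAs: Neat1 and Malat1, which stay in the nucleus, and 6 genes that host small nucleolar RNAs (snoRNAs), Gas5, Snhg1, Snhg5, Snhg6, Snhg8 and Snhg12. They were taken by symbol from tables of 54532 Ensembl genes, all 8 were found, and all 8 passed the filter on low counts that left 13083 genes for testing. By mean CPM (counts scaled to a common library size) Neat1 and Malat1 were abundant, at percentiles 98.7 and 98.6 of the tested genes. The hosts were not, from 55.3 for Gas5 down to 27.2 for Snhg12. Neat1 was among them because it was higher with NECA in these same libraries, so the difference between groups is given for the 8 genes as a description and was not used as a test. The RNA came from PMN-MDSC, the polymorphonuclear class of myeloid-derived suppressor cells, which resemble neutrophils and dampen T cell responses. They were isolated from spleen of newborn mice of the C57BL/6 strain. For 5 days the cells received NECA, a stable analogue of adenosine that activates its receptors, or DMSO, the solvent. Each group had 2 libraries made by SMARTer cDNA synthesis, and no genetic change is named in the labels of either group. How the cDNA was primed is not given in the sources used here, so how well RNAs without a poly(A) tail, snoRNAs among them, were captured is unknown. The labels name no separate animals or cultures for the replicates, so p-values measure only the spread between these samples.

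Neat1 is the scaffold of paraspeckles, nuclear bodies built from the long form of this RNA and proteins such as Nono and Sfpq. Malat1 lies beside it in the genome and gathers in nuclear speckles, where splicing factors are stored. The snoRNA host genes are spliced, and snoRNAs are cut out of their introns to guide chemical marks on ribosomal RNA. The spliced exons that remain code for no known protein, and in several hosts, Gas5 among them, they are removed by nonsense-mediated decay (NMD) when ribosomes read them. These hosts are known to start transcription at a run of pyrimidines, the 5′ terminal oligopyrimidine (TOP) start that genes of ribosomal proteins and translation factors share.

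Total counts ran from 15864120 to 18712625 per library, and the 8 genes held 0.131% to 0.143% of them. Neat1 and Malat1 made up 95.9% to 97.6% of the counts of the 8 genes. The labelled cell type was checked against neutrophil markers: 13 of 13 were detected, with a summed level, in CPM, of 126419 and 132045 in the DMSO libraries against 140760 and 141543 in the NECA libraries. Markers of other cell types were present and lower with NECA. Summed levels in DMSO replicates 1 and 2 and NECA replicates 1 and 2 were 584, 519, 220 and 164 CPM for 12 macrophage markers, 147, 154, 78.8 and 13.8 CPM for 9 B cell markers, 24.2, 30.4, 17.4 and 18.0 CPM for 9 T and NK cell markers, and 1182, 487, 340 and 19.5 CPM for 9 erythroid markers. At an adjusted p under 0.05, edgeR's quasi-likelihood test over all genes called 2 of the 13 neutrophil markers higher and 0 lower. At an unadjusted p under 0.05 there were 11, all higher, and DESeq2 called 7 higher. With library size alone as the scale edgeR called 0. Both NECA libraries were above both DMSO libraries for 12 of the 13, against 22.4% of all tested genes. The same edgeR test called 12 of the 12 macrophage markers lower, 1 of the 9 B cell markers and 0 of the 9 erythroid markers. Of the 9 T and NK cell markers, 4 were tested and 0 called (3 at an unadjusted p under 0.05, as were 9 of the erythroid markers, and 0 of either by DESeq2). Without NECA replicate 1 the B cell and erythroid counts were 9 and 8, without NECA replicate 2 they were 8 and 6, and without DMSO replicate 2 they were 0 and 1. Cd3e and Klrb1c had 0 counts in both NECA libraries and Ebf1 had 0 in NECA replicate 2, 3 markers named after their values were seen. Cd3d, at 15.8 and 19.4 CPM with DMSO against 13.8 and 15.6 CPM with NECA, held most of the summed T and NK cell level. Its log2 fold change was -0.26, where the other tested T and NK cell markers, Lck, Tcf7 and Cd3g, stood at -1.51, -1.51 and -1.86. In bulk RNA, fewer cells of a type and less RNA per cell cannot be told apart.

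The sequences at the 3′ ends of the long form of Neat1 and of Malat1 are shown because they set both RNAs apart from ordinary messages. As background, these ends are cut by RNase P rather than made by polyadenylation, and U-rich stretches fold with an A-rich tract into a triple helix that protects the RNA. The stretches below come from GENCODE M21 transcripts on GRCm38 and are read on the transcript strand. Capitals mark the 3 runs of at least 10 bases that the last 130 bases of Neat1 and the last 500 of Malat1 share: TTTCTTTTCCTGA and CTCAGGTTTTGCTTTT, each with a U-rich stretch, and the A-rich AAAAAGCAAAA.
Neat1, chr19:5824708-5824797, minus strand: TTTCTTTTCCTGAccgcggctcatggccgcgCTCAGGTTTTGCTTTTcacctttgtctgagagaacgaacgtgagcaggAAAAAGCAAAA
Malat1, chr19:5795982-5796065, minus strand: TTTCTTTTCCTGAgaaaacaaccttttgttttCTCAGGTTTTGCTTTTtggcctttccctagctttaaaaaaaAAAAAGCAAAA
The stretch is 90 bases long in Neat1 and ends at the last base of the annotated long transcript. In Malat1 it is 84 bases long, and the annotated transcript runs on for 292 bases. The runs were taken from these sequences themselves, so their presence here is no finding. Of 141767 annotated transcripts, 2 (0.00141%) held all of them in this order within 130 bases, 1 of each gene. The small RNA gene Gm27702 starts at the base after the 3′ end of Neat1, and it had 0 and 3 counts with DMSO and 0 and 0 with NECA.

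The 6 host genes carried 27 annotated snoRNA genes under 25 symbols: Gas5 held 10, Snhg1 8, Snhg12 5, Snhg5 2, and Snhg6 and Snhg8 1 each. In the annotated host transcript with the most exons that retains no intron, all 25 symbols fell inside introns. Examples are shown because they are the products the host genes are known for. Most belong to the C/D class, which guides methylation of ribosomal RNA, and capitals mark the C box letters TGATGA (first 20 bases) and the D box letters CTGA (last 20 bases). For the H/ACA class, which guides pseudouridylation, capitals mark ACA in the last 8 bases.
Snord47 in Gas5, chr1:161038082-161038158, plus strand: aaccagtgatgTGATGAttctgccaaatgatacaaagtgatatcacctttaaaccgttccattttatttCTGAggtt
Snord80 in Gas5, chr1:161037601-161037681, plus strand: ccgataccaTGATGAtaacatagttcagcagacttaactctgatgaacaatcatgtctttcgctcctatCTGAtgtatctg
Snord50a in Snhg5, chr9:88521529-88521600, minus strand: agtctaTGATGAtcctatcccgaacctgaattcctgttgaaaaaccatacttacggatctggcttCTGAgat
Snord50b in Snhg5, chr9:88521797-88521868, minus strand: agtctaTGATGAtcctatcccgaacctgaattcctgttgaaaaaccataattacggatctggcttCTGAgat
Snord87 in Snhg6, chr1:9942463-9942549, minus strand: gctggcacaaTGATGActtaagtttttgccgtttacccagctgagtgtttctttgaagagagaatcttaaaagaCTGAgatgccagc
Snora24 in Snhg8, chr3:123507937-123508066, minus strand: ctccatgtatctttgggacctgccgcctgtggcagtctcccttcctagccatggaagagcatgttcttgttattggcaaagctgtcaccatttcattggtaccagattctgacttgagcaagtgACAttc
Snord99 in Snhg12, chr4:132310691-132310764, plus strand: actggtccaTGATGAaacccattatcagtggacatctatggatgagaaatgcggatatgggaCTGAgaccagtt
The pair in Snhg5 differs at 1 of 72 bases, C50A, counted from the 5′ end of Snord50a. Of 21 snoRNA symbols searched for the C/D letters, 16 held both boxes, against 69.4% of 98 named Snord transcripts, and 3 of 4 searched for ACA held it, against 95.2% of 42 named Snora transcripts. The letters are short and overlap inside some of these RNAs.

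**Figure D1:**
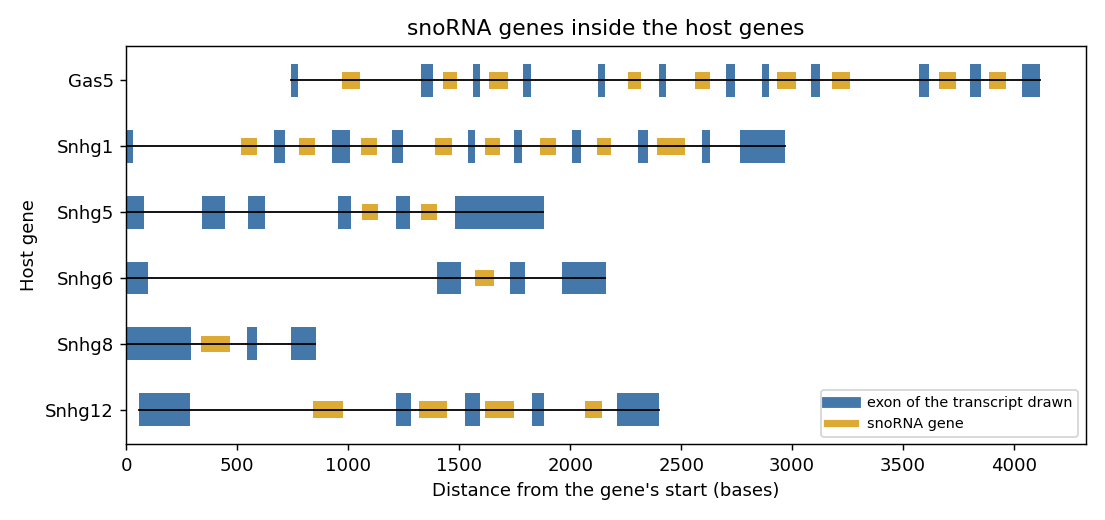
Maps of the 6 host genes, drawn as distance in bases from the start of each gene, with the exons of 1 annotated transcript in blue and snoRNA genes in yellow. Each snoRNA gene sits in an intron, and Gas5 and Snhg1 carry the most.

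The snoRNAs inside the hosts had almost no counts. Of the 27 snoRNA genes, 26 had 0 counts in all 4 libraries, and a count of 0 allows up to 3 counts per library. Snord87, inside Snhg6, had 3 and 0 counts with DMSO and 1 and 1 with NECA. The counting method is not given in the sources used here, so a read lying inside both a host and a snoRNA gene cannot be assigned to either. These limits cover counting error only.

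The start sites of 6 of the genes are shown because hosts are known for their pyrimidine starts. Each line gives 30 bases before and 30 from the start site in RefSeq (GRCm38.p6), and capitals mark the longest run of at least 5 pyrimidines that begins within 10 bases of the start. RefSeq start sequences matched 6 of the 8 symbols, and Neat1 and Snhg6 had no entry.
Gas5, chr1:161035136-161035195, plus strand: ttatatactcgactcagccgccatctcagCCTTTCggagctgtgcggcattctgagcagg
Snhg1, chr19:8723457-8723516, plus strand: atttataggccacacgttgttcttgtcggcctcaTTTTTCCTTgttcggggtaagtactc
Snhg5, chr9:88522868-88522927, minus strand: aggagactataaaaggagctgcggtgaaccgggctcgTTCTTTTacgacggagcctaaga
Snhg8, chr3:123508307-123508366, minus strand: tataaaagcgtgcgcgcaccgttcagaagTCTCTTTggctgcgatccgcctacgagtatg
Snhg12, chr4:132308648-132308707, plus strand: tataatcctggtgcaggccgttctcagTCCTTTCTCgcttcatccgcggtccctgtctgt
Malat1, chr19:5802643-5802702, minus strand: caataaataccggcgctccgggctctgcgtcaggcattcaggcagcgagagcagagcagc
The runs were 6 bases in Gas5, 9 in Snhg1, 7 in Snhg5, 7 in Snhg8 and 9 in Snhg12. Counted from the start site, they began at -1 in Gas5 and Snhg8 and at -3 in Snhg12. Those of Snhg1 and Snhg5 began at 4 and 7, past the annotated start. Malat1 and a second, upstream start of Gas5 held none. Of 32851 start sites in the table, 38.0% held such a run on the strand of the gene, the only strand searched. Among 73 start sites of cytosolic ribosomal protein genes, 56.2% held 1. The letters TATA, searched on the same strand 40 to 16 bases before the start, stood before the same 5 host starts and 5.9% of all starts. A match is a description of the letters and not of a factor bound there.

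Levels between genes were compared per length, in the deposited FPKM (fragments scaled to gene length and library size). Malat1 was highest, at 96.4 and 93.9 FPKM in the DMSO libraries against 92.8 and 90.5 FPKM in the NECA libraries. Neat1 was next, at 29.0 and 27.8 FPKM in the DMSO libraries against 33.5 and 38.8 FPKM in the NECA libraries. Over the 4 libraries neither range met that of the next gene. Snhg8 (4.25 to 6.20 FPKM), Gas5 (4.04 to 6.15 FPKM), Snhg5 (4.04 to 5.26 FPKM) and Snhg6 (2.83 to 4.76 FPKM) followed in order of their means, and each overlapped its neighbour. Snhg1 (0.851 to 1.87 FPKM) and Snhg12 (0.917 to 1.65 FPKM) were lowest and overlapped each other, below the range of Snhg6.

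The order depended on the length used for each gene. The deposited FPKM matched the union of all annotated exons, retained introns included: the length they imply was within 1% of that union for 95.4% of 9004 genes. That length was 20771 bases for Neat1, 6983 for Malat1 and 3760 for Gas5. With the longest annotated transcript that retains no intron, a length chosen after seeing the data, Gas5 (665 bases) had 28.4 and 34.8 FPKM in the DMSO libraries against 22.8 and 24.3 FPKM in the NECA libraries, and its range overlapped that of Neat1. Snhg1 then had a median of 5.20 FPKM, above Snhg6 at 4.54 FPKM, with overlapping ranges. Neat1 also has a short transcript of 3004 bases at its 5′ end. If all its reads came from that form, Neat1 would have 200.2 and 192 FPKM in the DMSO libraries against 232 and 268 FPKM in the NECA libraries, which is 2.05 to 2.96 times Malat1 instead of below it. Gene counts do not separate the short and long forms. Since the priming of the cDNA is not known, the level of either RNA also depends on a capture that could not be measured here.

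**Figure D2:**
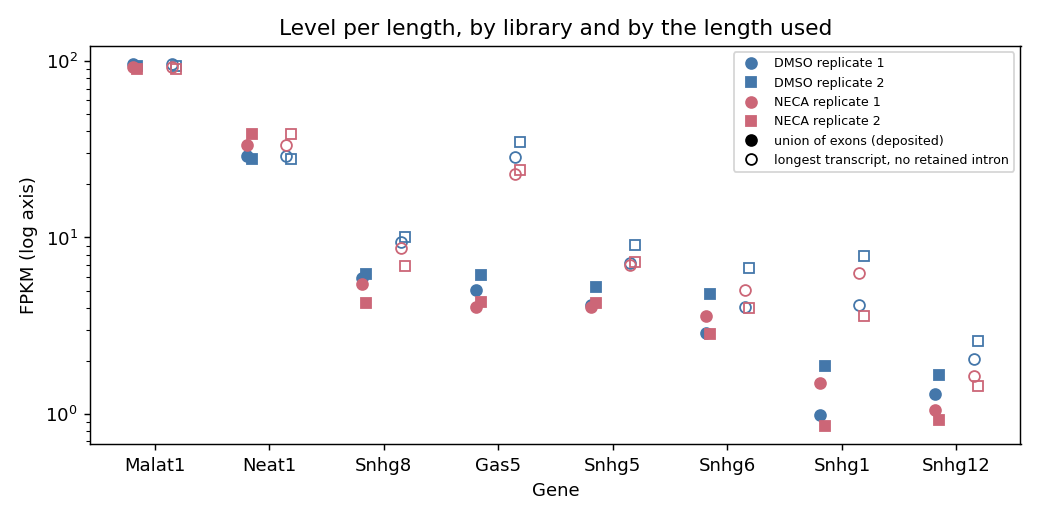
FPKM of each gene in each library on a log axis, with filled symbols for the deposited values and open symbols for the same counts over the longest transcript without a retained intron. Malat1 and Neat1 keep their values, and Gas5 moves from 4.04 to 6.15 FPKM up to 22.8 to 34.8 FPKM.

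Neat1 (ENSMUSG00000092274, chromosome 19, 5824708 to 5845478, minus strand, GRCm38) had 11544 and 10926 counts with DMSO and 12657 and 12425 with NECA. On TMM-scaled library sizes this was 603 and 580 CPM in the DMSO libraries against 695 and 803 CPM in the NECA libraries. Both NECA libraries lay above both DMSO libraries, and NECA replicate 2 was the highest of the 4. The mean was 592 ± 16.2 CPM with DMSO and 749 ± 76.2 CPM with NECA (SD, n = 2 each). The log2 fold change of the fit over all genes was 0.34 (SE 0.06), a fold of 1.27, at the 92.8th percentile of all tested genes. Leaving out NECA replicate 1 gave 0.45, and leaving out NECA replicate 2 gave 0.24. Scaled by the summed counts of the 13 neutrophil markers in place of TMM, an alternative chosen after seeing the data, it was 0.21 (SE 0.07). The summed macrophage, B cell and erythroid markers were lowest in NECA replicate 2, at 164, 13.8 and 19.5 CPM. Those of T and NK cells were lowest in NECA replicate 1. The part of these cell types in the level of Neat1 was not tested.

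Malat1 (ENSMUSG00000092341, chromosome 19, 5795690 to 5802672, minus strand) lies 22035 bases from Neat1 on the same strand. It had 675 and 658 CPM in the DMSO libraries against 647 and 630 CPM in the NECA libraries. Both NECA libraries were below both DMSO libraries by a small margin, with a log2 fold change of -0.06 (SE 0.05) in the fit over all genes. It stood at -0.13 (SE 0.05) with library size alone as the scale. Stretches of 50 bases or more are shared with 714 other genes by Malat1 (117 bases at most) and with 451 by Neat1 (129 bases at most), so a part of the counts of both is uncertain. The ratio of Neat1 to Malat1 counts within a library needs no scaling: it was 0.894 and 0.882 with DMSO and 1.07 and 1.27 with NECA. Neat1 had fewer counts than Malat1 in both DMSO libraries and more in both NECA libraries. Counts also depend on gene length, so this is no change in which RNA was more abundant. In the deposited FPKM Malat1 was 2.34 to 3.37 times Neat1 over the 4 libraries.

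**Figure D3:**
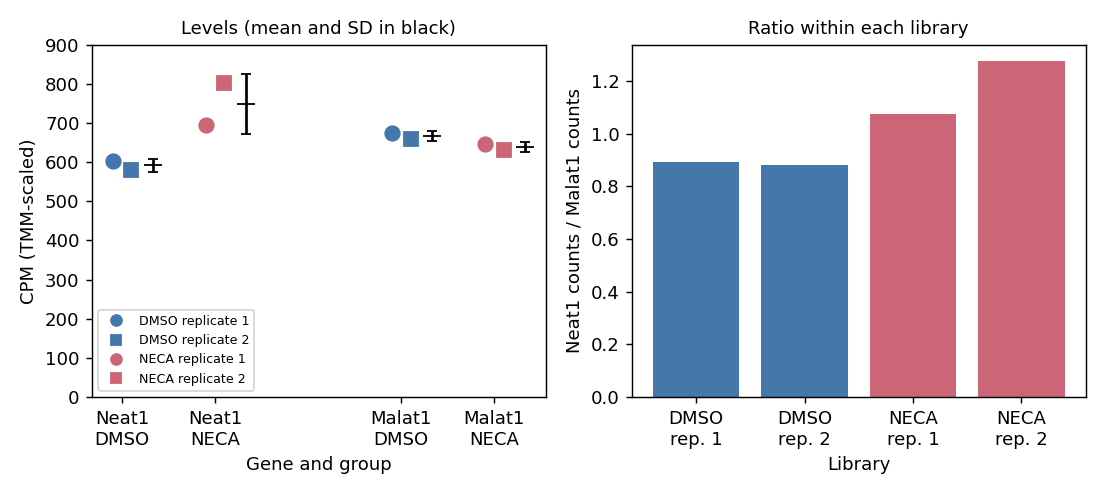
Left, CPM of Neat1 and Malat1 in each library, with the mean and SD (n = 2) of each group in black. Right, the ratio of their counts in each library, which is 0.882 to 0.894 with DMSO and 1.07 to 1.27 with NECA.

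Gas5 (ENSMUSG00000053332, chromosome 1, 161034422 to 161038539, plus strand), named for its rise in growth-arrested cells, was the most counted host, at 249 to 437 counts per library. It had 18.97 and 23.2 CPM in the DMSO libraries against 15.2 and 16.1 CPM in the NECA libraries. Both NECA libraries were below both DMSO libraries. The log2 fold change was -0.43 (SE 0.14), which became -0.29 on leaving out DMSO replicate 2 and -0.57 on leaving out DMSO replicate 1. The 428 bases at its annotated upstream start overlap Zbtb37 on the other strand, and the use of strand in counting is not given in the sources used here, so part of these counts is uncertain.

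Snhg12 and Snhg8 also had both NECA libraries below both DMSO libraries. Snhg12 (ENSMUSG00000086290, chromosome 4, 132308623 to 132311024, plus strand), a host of snoRNAs of both classes, had 3.14 and 3.98 CPM in the DMSO libraries against 2.53 and 2.20 CPM in the NECA libraries. Its log2 fold change of -0.59 (SE 0.32) was the lowest of the 8. It had 34 to 75 counts per library, and the exact Poisson 95% intervals of DMSO replicate 1, 2.39 to 4.04 CPM, and NECA replicate 2, 1.52 to 3.07 CPM, overlapped. Snhg8 (ENSMUSG00000104960, chromosome 3, 123507552 to 123508404, minus strand), the host of Snora24, had 5.02 and 5.31 CPM in the DMSO libraries against 4.61 and 3.62 CPM in the NECA libraries. Its log2 fold change was -0.32 (SE 0.26), and -0.51 without NECA replicate 1 and -0.16 without NECA replicate 2.

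The groups overlapped for Snhg1, Snhg5 and Snhg6. Snhg5 (ENSMUSG00000097195, chromosome 9, 88521050 to 88522929, minus strand), which shares such stretches with 4 other genes, 211 bases at most, had 7.21 and 9.14 CPM in the DMSO libraries against 6.97 and 7.30 CPM in the NECA libraries (log2 fold change -0.20, SE 0.21). DMSO replicate 2 was the 1 library apart, and without it the value was -0.02. Snhg6 (ENSMUSG00000098234, chromosome 1, 9941959 to 9944118, minus strand) had 3.29 and 5.47 CPM in the DMSO libraries against 4.12 and 3.23 CPM in the NECA libraries. Its log2 fold change was -0.25 (SE 0.31), and 0.16 without DMSO replicate 2. At its 3′ end it overlaps 127 bases of Mcmdc2 on the other strand, so its counts are uncertain.

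Snhg1 (ENSMUSG00000108414, chromosome 19, 8723475 to 8726443, plus strand), the host of 8 snoRNA genes, shares such stretches with 6 other genes, 61 bases at most. It had 2.93 and 5.58 CPM in the DMSO libraries against 4.45 and 2.52 CPM in the NECA libraries. The exact Poisson 95% intervals of the DMSO libraries, 42.3 to 72.7 and 85.9 to 127 counts at nearly equal depth, did not overlap. The log2 fold change was -0.28 (SE 0.37), and without DMSO replicate 2 or NECA replicate 2 it had the other sign, at 0.25 and 0.07.

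**Figure D4:**
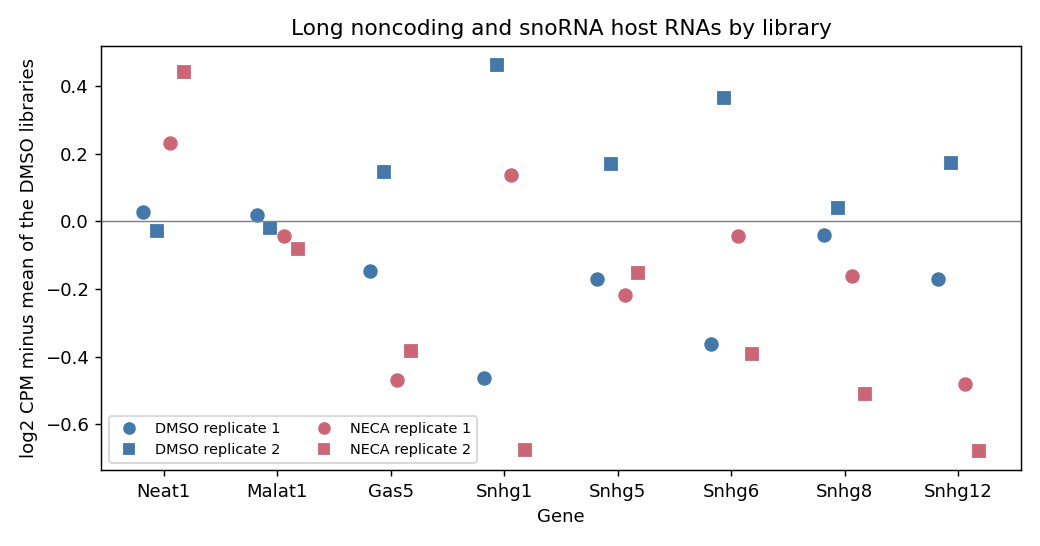
Log2 CPM of each gene in each library minus the mean of the DMSO libraries. Neat1 is above 0 in both NECA libraries, at 0.23 and 0.44, and DMSO replicate 2 is the highest library for all 6 host genes.

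Across the 8 genes, 1 (Neat1) was past an adjusted p of 0.05 in the direction higher with NECA and 0 in the direction lower, by edgeR's quasi-likelihood test over all genes. Of all 13083 tested genes, 0.352% were called higher, 0.978% lower and 1.33% in either direction. Since Neat1 was chosen by this contrast, nothing is read from that count. It was 0 without DMSO replicate 2 and with library size alone as the scale. Both NECA libraries were above both DMSO libraries for 1 of the 8 and below for 4, against 22.4% and 24.3% of all tested genes (46.7% in either direction), and nothing is read from these counts either.

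Summed over the 6 host genes, 1 DMSO library stood apart from the other 3 libraries. The summed level was 40.5 and 52.7 CPM in the DMSO libraries against 37.8 and 34.96 CPM in the NECA libraries. DMSO replicate 2 was highest for each of the 6, and the other 3 libraries lay between 34.96 and 40.5 CPM in sum. Genes of cytosolic ribosomal proteins, known to share the pyrimidine start, summed to 7888 and 8903 CPM in the DMSO libraries against 7912 and 7360 CPM in the NECA libraries, also highest in DMSO replicate 2 and lowest in NECA replicate 2. The macrophage markers, at 584 and 519 against 220 and 164 CPM, the B cell markers, at 147 and 154 against 78.8 and 13.8 CPM, and the erythroid markers, at 1182 and 487 against 340 and 19.5 CPM, were lower with NECA in sum as well. Their part in the levels of the host genes was not tested.

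Genes whose level over the 4 libraries was most like that of Neat1 were sought among 5512 genes whose mean reached 20 CPM. The measure was the root mean square difference of centred log2 CPM. Genes with a provisional symbol, such as Gm or Rik, were left out, many noncoding genes among them. The closest was Cd101, a surface glycoprotein of the immunoglobulin family, with a difference of 0.02, at 47.3 and 45.9 CPM in the DMSO libraries against 56.3 and 63.7 CPM in the NECA libraries. Next came Dhrs9, a short-chain dehydrogenase, Slc16a6, a transporter of the monocarboxylate family, Cd55, which limits complement on the cell surface, and Klra2, a lectin-like receptor, with differences of 0.04 each. Neat1's own profile had a root mean square of 0.18 on that scale. For Malat1 the closest were Atad2, Unc93b1, Psme1, Irak1 and Ywhag, all within 0.01, beside a profile that itself spread by only 0.04. For Gas5 they were Ivns1abp, Phf20, Slc1a5, Polr2g and G3bp1, with differences of 0.04 to 0.06 beside a profile of 0.24. With 4 libraries this is a description of likeness only.

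Paraspeckle and speckle proteins, the partners of Neat1 and Malat1, differed little between groups. Of 17 paraspeckle proteins tested, edgeR's test called 0 in either direction (2 at an unadjusted p under 0.05, and 0 by DESeq2). Their median log2 fold change was -0.02 against -0.0065 for all tested genes. The core proteins Nono and Sfpq, named here for their role after their values were seen, stood at -0.02 (SE 0.06) and -0.03 (SE 0.05). Those with the smallest p were Hnrnpa1 (-0.28, adjusted p = 0.088), Cpsf6 (0.20, adjusted p = 0.217), Ewsr1 (-0.14, adjusted p = 0.331) and Smarca4 (-0.11, adjusted p = 0.476). With library size alone 1 of the 17 was called lower, and without NECA replicate 1 the same test called 1 higher. Of 20 nuclear speckle proteins, edgeR called 0 in either direction (2 at an unadjusted p under 0.05, and 0 by DESeq2), with values between -0.15 (Srsf3) and 0.16 (Clk4) and a median of -0.0037. Their median was 0.000436 with RLE size factors and -0.08 with library size alone, so no direction is given.

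RNase P cuts the 3′ ends of Malat1 and long Neat1, and its genes were listed together with that of RNase Z. Of the 13 listed, 9 were tested and edgeR called 0 (2 at an unadjusted p under 0.05, and 0 by DESeq2), with a median of -0.21. Among those not tested was Rpph1, the gene of the RNA part of RNase P, named after its values were seen. It had 0 counts in all 4 libraries, and how well this RNA was captured was not tested. Elac2, which encodes RNase Z, had 8.20 and 8.82 CPM in the DMSO libraries against 5.66 and 4.65 CPM in the NECA libraries (-0.72, SE 0.22, adjusted p = 0.123 by edgeR). Rpp14, a subunit of RNase P, stood at -0.90 (SE 0.37, adjusted p = 0.266). The median was -0.05 without DMSO replicate 2.

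Of the proteins that bind snoRNAs and assemble them, none passed the test. Of 17 tested, 0 were called higher and 0 lower by edgeR over all genes (7 had an unadjusted p under 0.05, all lower, and DESeq2 called 0), with a median log2 fold change of -0.47 and 1 value above 0. Both NECA libraries were below both DMSO libraries for 14 of the 17, against 24.3% of all tested genes. Fbl, the methyltransferase that C/D snoRNAs guide, had 7.68 and 9.83 CPM in the DMSO libraries against 4.45 and 4.01 CPM in the NECA libraries (-1.05, SE 0.23, adjusted p = 0.0521). Nop56, a core C/D protein whose gene is itself a snoRNA host, stood at -0.54 (SE 0.18, adjusted p = 0.165), Snu13 at -0.48 (SE 0.16, adjusted p = 0.153) and the assembly factor Nufip1 at -1.01 (SE 0.36, adjusted p = 0.194). On leaving out NECA replicate 1 the median was -0.63 and 4 were called lower, on leaving out NECA replicate 2 it was -0.32 and 1 was called, and with library size alone 1 was called lower. In the same libraries the summed macrophage markers were at 584, 519, 220 and 164 CPM, the B cell markers at 147, 154, 78.8 and 13.8 CPM and the erythroid markers at 1182, 487, 340 and 19.5 CPM, and their part in these values was not tested.

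Other noncoding snoRNA hosts were mostly too low to test. Of 16 listed, 14 were in the tables and 6 were tested. edgeR called 0 (1 at an unadjusted p under 0.05, and 0 by DESeq2), and the median was -0.45. Zfas1, the host of C/D snoRNAs at Znfx1, had 9.30 and 8.02 CPM in the DMSO libraries against 5.05 and 6.20 CPM in the NECA libraries (-0.63, SE 0.22, adjusted p = 0.178). Snhg17 stood at -0.43 (SE 0.43, adjusted p = 0.702). Leaving out DMSO replicate 1 put the median at -0.26 over 6 tested genes, and leaving out DMSO replicate 2 put it at -0.62 over 7, since the filter then passed 1 more.

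Of 26 protein-coding snoRNA hosts, edgeR called 0 higher and 2 lower, with a median of -0.22 and 1 value above 0. At an unadjusted p under 0.05 by edgeR there were 15, all lower, and DESeq2 called 4 lower. Both NECA libraries were below both DMSO libraries for 15 of the 26, against 24.3% of all tested genes. Ncl, the nucleolar protein nucleolin, fell from 91.4 to 69.8 CPM (-0.39, SE 0.07, adjusted p = 0.0201 by edgeR), and Rpl3, a ribosomal protein, from 104 to 73.2 CPM (-0.51, SE 0.09, adjusted p = 0.0167). Rpl12 (-0.55, adjusted p = 0.0702) and Rpl23a (-0.32, adjusted p = 0.0887) did not pass. Both calls were lost without DMSO replicate 2 (adjusted p = 0.0612 for Rpl3 and 0.0647 for Ncl), that of Ncl also without DMSO replicate 1 (adjusted p = 0.0502), and 11 of the 26 were called lower without NECA replicate 1. With library size alone as the scale 9 were called lower. Counts of ribosomal protein genes are uncertain because they have many near-identical pseudogenes.

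Among 15 translation factors and other genes with a TOP start, 7 had an unadjusted p under 0.05 by edgeR, all lower, and DESeq2 called 2 lower. Both NECA libraries were below both DMSO libraries for 9 of the 15, against 24.3% of all tested genes. The median was -0.18, and at an adjusted p under 0.05 edgeR called 0 higher and 1 lower. This was Npm1, nucleophosmin, at 35.7 and 37.7 CPM in the DMSO libraries against 27.8 and 21.5 CPM in the NECA libraries (-0.57, SE 0.12, adjusted p = 0.0492). Its call was lost without DMSO replicate 1, DMSO replicate 2 or NECA replicate 2 (adjusted p = 0.071, 0.126 and 0.161), and 0 of the 15 were called with RLE or upper quartile scaling. Eef1a1 (-0.24, adjusted p = 0.0879) and Eef1g (-0.37, adjusted p = 0.066) did not pass, and 5 were called lower without NECA replicate 1 and 5 with library size alone. Of 79 cytosolic ribosomal protein genes tested, edgeR called 0 higher and 1 lower and DESeq2 3 lower (median -0.16), with 17 lower and 2 higher without NECA replicate 1 and 9 lower with library size alone. Of the 79 ribosomal genes, 31 had an unadjusted p under 0.05 by edgeR, 30 lower and 1 higher. Both NECA libraries were below both DMSO libraries for 40 and above for 2 (24.3% and 22.4% of all tested genes). The lists share genes, so their counts are not independent. The ribosomal gene called by edgeR was Rpl3, a coding host counted above. Many coding hosts are ribosomal protein genes, and others are also in the TOP or snoRNP list. The markers of B, T and NK, erythroid and macrophage cells were lower with NECA as given above, and their part in these lists was not tested. NMD factors stood near 0, with 0 of 16 called by edgeR (0 also at an unadjusted p under 0.05 and by DESeq2), a median of -0.03, and Upf1, the central helicase of this decay, at 0.06 (SE 0.06, adjusted p = 0.716).

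**Figure D5:**
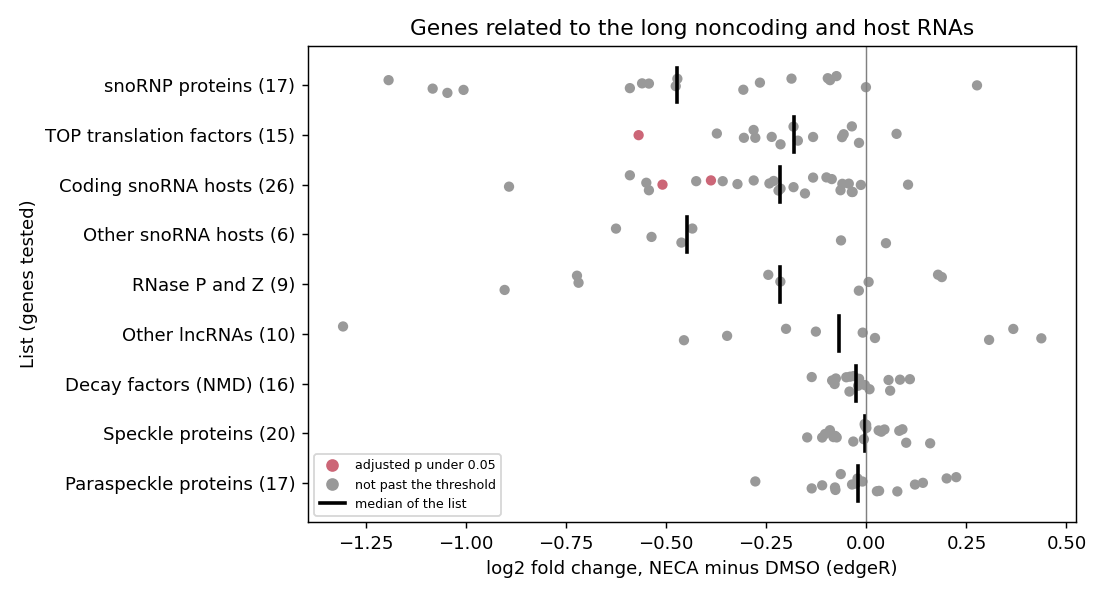
Log2 fold change of every tested gene in 9 lists, 1 point per gene, with the median of each list as a black bar and genes past the threshold in red. Paraspeckle, speckle and decay factors centre near 0, and snoRNP proteins have a median of -0.47 with no gene past the threshold. Some genes stand in more than 1 list.

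Genes beside the 8 in the genome gave no call. Within 20 kb of them or inside them lay 53 annotated genes, among them the 27 snoRNA genes of the hosts. Of the 53, 9 were tested and edgeR called 0 (1 at an unadjusted p under 0.05, and 0 by DESeq2). Frmd8, 4224 bases upstream of Neat1 on the same strand, had 204 and 209 CPM in the DMSO libraries against 209 and 212 CPM in the NECA libraries (0.03, SE 0.06, adjusted p = 0.881), where Neat1 stood at 0.34. Slc3a2, which starts 106 bases from Snhg1 on the other strand and encodes an amino acid transporter chain, stood at -0.21 (SE 0.10, adjusted p = 0.314). Trnau1ap, next to Snhg12, stood at -0.26 (SE 0.24, adjusted p = 0.676), and Zbtb37, across from Gas5, at -0.09 (SE 0.12, adjusted p = 0.787).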

How the data were processed

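The members and gene lists were chosen with earlier results of these data known. The submitters' processing notes name HISAT, StringTie and edgeR, with no version, and the build as mm10 or GRCm38. Whole-number counts per gene were deposited by the authors, per the file headers, with FPKM computed by the authors from the same counts. How reads were counted, with which annotation and on which strand, is not given in the sources used here. The implied gene lengths match GENCODE M21. The deposited counts entered edgeR 4.0.16 (R 4.3.3) unchanged: filterByExpr (minimum count 10), TMM, and the quasi-likelihood test (glmQLFit, glmQLFTest) of NECA against DMSO over all 4 libraries, with no replicate block, 2 residual degrees of freedom, Benjamini-Hochberg adjustment over 13083 genes and a threshold of 0.05. SE is the absolute log2 fold change over the root of F. The script was tested on simulated data. Alternatives were 3 other scalings, 2 other filters, DESeq2 1.42.0, a replicate block and leaving out each library. For the fold changes of the 8 genes there were also scaling by neutrophil markers, chosen after seeing the data, and the deposited FPKM. The FPKM are the same counts rescaled, so they are no separate check. Named genes were the 8 members, up to 4 genes per list with the smallest p, 5 genes most like Neat1, Malat1 and Gas5, and tested neighbours within 20 kb. Not all of them are printed, and Nono, Sfpq, Rpph1, Gm27702, Snord87, Snora31 and 3 cell type markers were named outside this rule. Intervals cover counting error only. Coordinates are from GENCODE M21.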

Additional observations from a re-analysis of the deposited data

How the results depend on the processing

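The signs of Neat1, Malat1, Gas5, Snhg5, Snhg8 and Snhg12 held in the 13 alternatives run for each, and those of Snhg1 and Snhg6 did not. Without each library in turn the log2 fold changes ran from 0.24 to 0.45 for Neat1, -0.09 to -0.04 for Malat1, -0.57 to -0.29 for Gas5, -0.75 to 0.25 for Snhg1, -0.36 to -0.021 for Snhg5, -0.57 to 0.16 for Snhg6, -0.51 to -0.16 for Snhg8 and -0.75 to -0.41 for Snhg12. Malat1 moved to -0.13 with library size alone. Scaled by neutrophil markers, Neat1 moved to 0.21 and Malat1 to -0.19. Calls over all genes, 46 higher and 128 lower, were 21 and 217 with library size alone, 285 and 590 with no filter and, with DESeq2, 150 higher. They ran from 23 to 230 higher and from 86 to 560 lower without each library. Genes called in the related lists, 3, were 14 with library size alone, 18 with no filter, 6 with DESeq2, and 1 to 21 without each library. Members called, 1, were 0 with library size alone and 0 to 1 without each library. The cause was not tested. When a library is left out, the other library of its group is assumed to vary like the rest.

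The replicate block gave 123 genes higher, 298 lower and 10 in the related lists. By list, it called 5 coding hosts, 3 TOP genes and 1 snoRNP gene lower, and 1 other long noncoding RNA higher. Of the ribosomal protein genes it called 5 lower and 1 higher. Among the markers it called 9 neutrophil genes higher, and 12 macrophage, 8 B cell, 8 erythroid and 1 T and NK cell genes lower. Differences between replicates 1 and 2 in the 2 groups correlated at 0.024 over 13083 genes, so the numbers were not taken to pair libraries. Library size alone shifted the median gene to -0.08. Host genes with 34 to 105 counts per library limit what can be seen at this depth.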

Other observations

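Of 25 other named long noncoding RNAs, 22 were in the tables and 10 were tested, and edgeR called 0 in either direction (3 at an unadjusted p under 0.05, and 0 by DESeq2), with a median log2 fold change of -0.07. Mir142hg, the host of a microRNA of blood cells, had 30.4 and 35.6 CPM in the DMSO libraries against 38.5 and 51.0 CPM in the NECA libraries (0.44, SE 0.13, adjusted p = 0.119). Dleu2, the host of the miR-15a and miR-16-1 cluster, had 32.4 and 33.9 CPM in the DMSO libraries against 37.9 and 44.3 CPM in the NECA libraries (0.31, SE 0.10, adjusted p = 0.157). For both, as for Neat1, NECA replicate 2 was the highest library, and the part of other cell types in this was not tested. AW112010, an RNA of immune cells, stood at -1.31 (SE 0.55, adjusted p = 0.277) with 6 to 52 counts per library. Without NECA replicate 1, 2 of the 10 were called higher and 1 lower, and without DMSO replicate 2 or NECA replicate 2, 1 was called lower. The median changed sign on leaving out DMSO replicate 1 (0.10) or NECA replicate 1 (0.05).

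Of 1558 annotated snoRNA and scaRNA genes in the tables, 215 had a count in any library, with totals of 822 and 837 counts with DMSO and 721 and 754 with NECA. Snora31 had the most, at 116, 138, 99 and 126 counts. It lies outside the 8 genes described here and is named after its values were seen.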
